A study of Mus musculus with 52 samples.

Results

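Whole tumors were compared with lymph nodes of the same 4 vehicle-treated mice, numbered 1, 2, 4 and 5 in the sample titles, which makes 8 of the 52 sequenced libraries of the series. The pairs were chosen by title, tissue label and treatment label. All 4 mice were hCD40tg animals, meaning that they carry human CD40, and all bore MC38-CEACAM5 tumors, grown from a mouse colon carcinoma line carrying the human antigen CEACAM5. The animals received vehicle and no antibody. The promoter of the human CD40 transgene, the age and sex of the animals, the node that was taken and whether nodes were pooled were not given in the sources used here. Other mice of the study received CD40 mAb, an antibody against CD40, or ATOR-4066, a bispecific antibody that binds CD40 and CEACAM5, and their tumor and lymph node libraries serve below as further animals in which the same tissues were compared.

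A lymph node is an organ of densely packed lymphocytes. B cells lie in follicles on a network of follicular dendritic cells, T cells lie around them with dendritic cells that have migrated in, naive lymphocytes enter through high endothelial venules, and macrophages line the sinuses. MC38 tumors are masses of dividing carcinoma cells with fibroblasts, vessels and infiltrating myeloid cells. In RNA from whole tissue, fewer cells of a type and less RNA of a gene per cell cannot be told apart.

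Levels are given in CPM, that is, counts scaled to the size of the library and to its composition, in the order of animals 1, 2, 4 and 5. Differences are log2 values of tumor minus lymph node with their standard error (SE), from a paired edgeR quasi-likelihood fit over all 18822 genes that passed a filter on low counts, with p-values adjusted over all of them. Nothing in the labels says that the libraries are anything other than 1 sample of a tissue from 1 animal, so the p-values measure the spread between these 4 animals. The 8 libraries held 49034947 to 60694269 counts. The lymph node libraries took up 11.9 to 14.7% of their counts with their 20 highest genes, and the tumor libraries 7.03 to 7.73%.

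The labelled tissues were checked against their defining genes. Summed over the B cell markers, the 4 lymph nodes reached 3753 to 6297 CPM and the tumors 51.8 to 225 CPM. Summed over fibroblast and matrix genes, the tumors reached 16914 to 22427 CPM and the lymph nodes 1624 to 3237 CPM. 1 further vehicle library labelled lymph node, from animal 3, went against its label. On a scale common to all 52 libraries it held 29.6 CPM of B cell markers, where the nodes of animals 1, 2, 4 and 5 held 1849.5 to 3052 CPM, and 9192 CPM of fibroblast and matrix genes, where those nodes held 778 to 1595 CPM. On the same scale the 4 vehicle tumors held 25.5 to 110 CPM of B cell markers and 8314 to 10956 CPM of fibroblast and matrix genes. Whether the label of this library is right was not tested. The series holds no tumor library of that animal, and the comparison leaves its lymph node out.

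The pair of animal 1 stood apart from the other 3 pairs in both tissues. Over the 20 genes highest in tumor, the lymph node of animal 1 held a median of 6.70% of the level in its tumor (range 1.88 to 13.4%), and no gene of this set passed 0.661% in the other animals. Over the 20 genes highest in lymph node, the tumor of animal 1 held a median of 4.27% of the level in its lymph node, and the medians of the other 3 animals were 0.104 to 0.135%. What set this pair apart was not tested. Without animal 1, 50 of the 183 genes named in the text moved by more than 1.5 times in fold, all of them to values farther from 0, and these values are given for the genes described sample by sample.

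**Figure D1:**
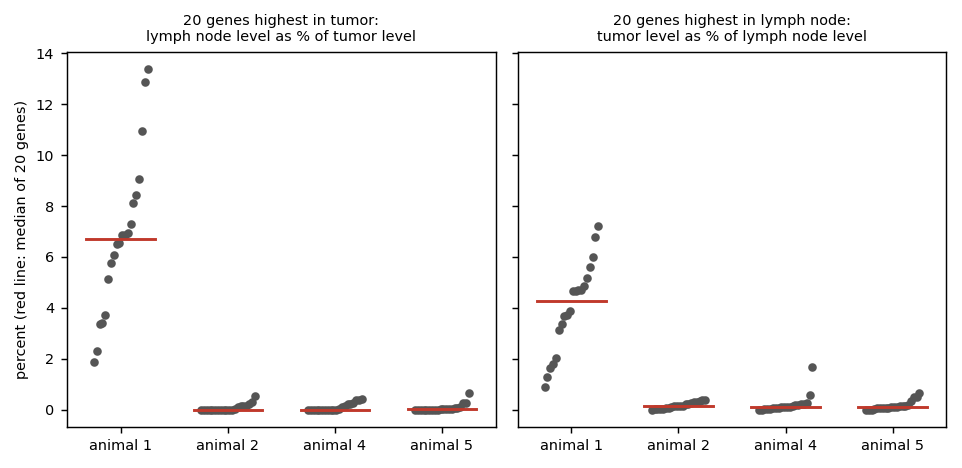
Level in the other tissue as a percentage, for the 20 genes highest in tumor (left, lymph node over tumor) and the 20 highest in lymph node (right, tumor over lymph node); each point is 1 gene in 1 animal, and red lines are medians. Animal 1 has medians of 6.70% and 4.27%, above every point of the other animals in the left panel and above their medians in the right panel.

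The tissues differed in most of their measured genes. Of 18822 genes tested, 6916 (36.7%) were higher in tumor and 7079 (37.6%) were lower at an adjusted p under 0.05, and 4827 did not pass (74.4% called in either direction). Past a 2-fold difference, tested with glmTreat against a log2 difference of 1, 2915 genes (15.5%) were higher and 3571 (19%) were lower, 34.5% in all. All 4 tumors were above all 4 nodes in 36.9% of the genes tested and below them in 37.2%. The median log2 difference over all genes tested was -0.01. These shares are the background against which the counts in each gene group below are read, and no group was tested as a set. The first principal component, which separated the tissues, carried 88.9% of the variance.

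**Figure D2:**
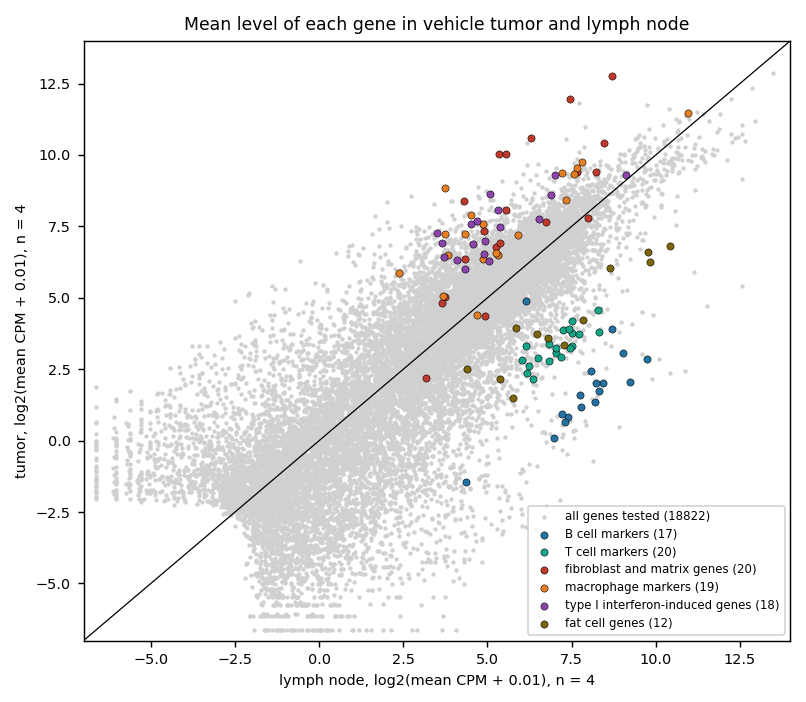
Mean level of every gene tested in vehicle lymph node (x axis) and vehicle tumor (y axis), both log2(mean CPM + 0.01) over 4 animals, with 6 gene groups in color and the diagonal of equal levels. The B cell and T cell markers and the fat cell genes lie below the diagonal, and nearly all fibroblast, macrophage and type I interferon-induced genes lie above it.

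The genes of largest difference toward tumor included Hmga2, Rhox5, Cntn3, Tex101, Plac1, Gpr149, Slitrk5, Prl2c2, Slc47a1, Spp1, Fosl1, Tcp11x2, Vmn1r139, Nlrp4e, Shisal2b, Hoxd13, Prr19, Gsta2 and Inhba. Their log2 differences ran from 6.91 to 9.997. Hmga2, a chromatin architecture protein of embryonic and transformed cells, was at 326, 438, 374 and 362 CPM in the tumors and at 26.5, 0.0184, 0 and 0.0688 CPM in the lymph nodes. The 4 tumors lay close together, the lymph node of animal 1 held a distinct level, and the other 3 lymph nodes were at or near 0. The log2 difference of Hmga2 was 9.997 ± 2.35 (SE, adjusted p = 0.0136), and 13.57 without animal 1, where the value depends on the small count that the fit adds. It did not pass without animal 4 (adjusted p = 0.0538) or without animal 5 (adjusted p = 0.0693), and Prl2c2 and Shisal2b lost their calls in the same way. Rhox5, an X-linked homeobox gene of the reproductive tract, was at 275, 301, 346 and 395 CPM in the tumors and at 15.8, 0.0184, 0 and 0.172 CPM in the lymph nodes. Its tumors were again far above every lymph node, with animal 1 the highest of the nodes, and the log2 difference was 9.63 ± 2.07 (SE, adjusted p = 0.00995) (12.35 without animal 1). Without animal 5 the adjusted p of Rhox5 was 0.0548.

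Fosl1, a subunit of the AP-1 transcription factor, was at 104, 122, 86.4 and 117 CPM in the tumors and at 9.42, 0.165, 0.222 and 0.0860 CPM in the lymph nodes. Inhba, the subunit that forms activin A, was at 89.5, 115, 129.8 and 113 CPM in the tumors and at 6.15, 0.642, 0.499 and 0.138 CPM in the lymph nodes. In both genes the lowest tumor was above the highest node, and the log2 differences were 7.36 ± 1.42 (SE, adjusted p = 0.00674) and 6.91 ± 1.10 (SE, adjusted p = 0.00341). Without animal 1 they were 9.41 and 8.17. Spp1, which encodes the secreted phosphoprotein osteopontin, was at 446, 532, 445 and 423 CPM in the tumors and at 48.9, 1.10, 1.85 and 1.19 CPM in the lymph nodes. The node of animal 1 was the highest node here too, and Spp1 differed by 7.38 ± 1.37 (SE, adjusted p = 0.00596) (8.42 without animal 1). CD45+Ly6G- cells sorted from the tumors of 4 other vehicle mice held 129 ± 65.5 (SD, n = 4) CPM of Spp1, 6.54 ± 4.47 (SD, n = 4) CPM of Hmga2 and 1.91 ± 1.65 (SD, n = 4) CPM of Inhba, on a scale shared with the vehicle tumors, whose means were 436, 355 and 106 CPM. The sorted cells come from other animals and another preparation, so these levels stand side by side with no test.

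**Figure D3:**
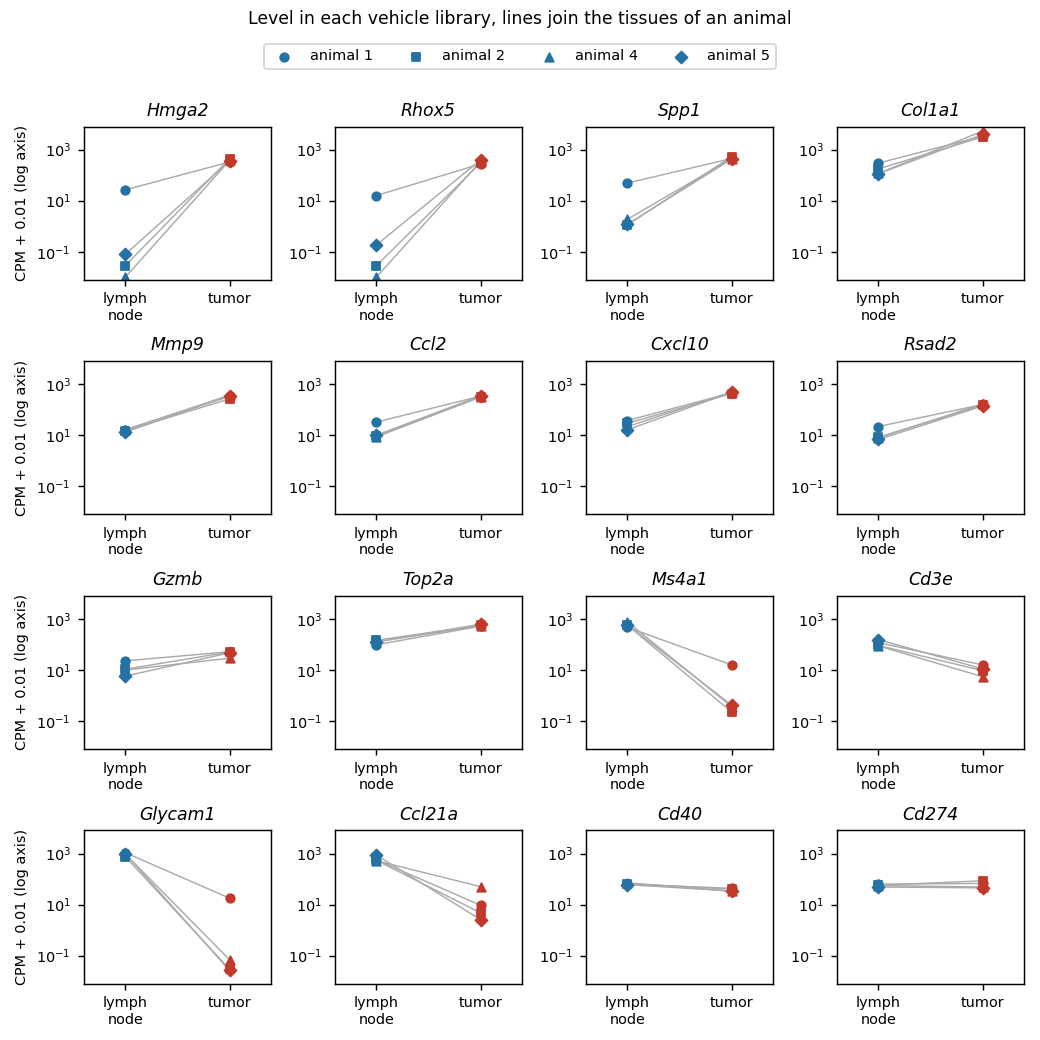
Level of 16 genes in each vehicle library (CPM + 0.01, log axis), with a line joining lymph node (blue) and tumor (red) of 1 animal and a marker shape per animal. Hmga2, Rhox5 and Spp1 sit highest among the nodes in animal 1, Ms4a1 and Glycam1 sit highest among the tumors in animal 1, and Cd274 overlaps between the tissues.

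The genes of largest difference toward lymph node, many of them B cell genes, included Glycam1, Ms4a1, Fcmr, Cd79a, Cr2, Jchain, Mzb1, Pou2af1, Fcer2a, Serpina10, Pax5, Blk, Il22ra2, Tnfrsf13c, Lsmem2, Cd209b, Ly6d, Cxcr5 and Dsc3. Glycam1, a mucin of high endothelial venules, was at 17.9, 0.0195, 0.0590 and 0.0163 CPM in the tumors and at 1081, 760.3, 968 and 998 CPM in the lymph nodes. The nodes were all high, the tumor of animal 1 was the only tumor above 1 CPM, and the log2 difference was -11.41 ± 2.13 (SE, adjusted p = 0.00600), and -14.76 without animal 1. Ms4a1, the gene of CD20, was at 15.7, 0.214, 0.354 and 0.407 CPM in the tumors and at 469, 571, 773 and 590.2 CPM in the lymph nodes. The log2 difference of Ms4a1 was -9.50 ± 1.62 (SE, adjusted p = 0.00435), and -10.93 without animal 1.

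B cell markers and immunoglobulin constant genes were lower in tumor. All 17 B cell markers tested were lower, all past 2-fold, with a median log2 difference of -7.70 (-8.93 without animal 1). They include Pax5 (-7.77), the factor that keeps B cell identity, and Cd22 (-5.07). Ebf1 (-1.23) differed least, a factor that is also expressed outside B cells. All 13 immunoglobulin constant genes were lower (12 past 2-fold, median -8.61, and -9.73 without animal 1). Ighg1, the constant region of IgG1, was at 104, 0.914, 1.00 and 0.407 CPM in the tumors and at 842, 4671, 2252 and 3902 CPM in the lymph nodes. All nodes were above all tumors, and among tumors only that of animal 1 stood clear of 1 CPM. Its difference of -10.91 ± 2.63 (SE, adjusted p = 0.0148), which was -12.17 without animal 1, did not pass without animal 2, 4 or 5 (adjusted p = 0.0544, 0.0655 and 0.0730). Several immunoglobulin genes share near-identical sequence, so the split of reads among Ighg and Iglc members is uncertain.

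Genes of germinal centers and plasma cells followed less evenly: 10 of 14 were lower and 2 higher. Mzb1, a chaperone of antibody assembly, differed by -8.23. Sdc1 (1.45), the surface proteoglycan CD138 that epithelial and stromal cells express as well as plasma cells, and S1pr2 (1.02) were higher in tumor. In B cell receptor signalling, 11 of 14 genes were lower. The only higher one was Cd72 (0.59), an inhibitory co-receptor.

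T cell genes were lower in tumor as well, with a median nearer 0 than that of the B cell genes. All 20 T cell markers were lower and past 2-fold, with a median of -3.85. Cd3e, which encodes a CD3 chain of that receptor, was at 15.7, 9.36, 5.42 and 10.95 CPM in the tumors and at 118, 90.8, 87.0 and 155 CPM in the lymph nodes. The highest tumor was below the lowest node, and the log2 difference was -3.50 ± 0.22 (SE, adjusted p = 1.30e-04). Cd8a was at 23.0, 15.9, 10.8 and 23.2 CPM in the tumors and at 193, 139, 160.0 and 243 CPM in the lymph nodes, with a log2 difference of -3.37 ± 0.16 (SE, adjusted p = 1.01e-04), and Cd4 differed by -3.42. The ratio of Cd8a to Cd4 overlapped between the tissues, at 0.895 to 2.30 in tumor and 1.02 to 1.45 in lymph node. Among naive and central memory T cell genes, 12 of 13 were lower, among them Ccr7 (-4.17), the receptor that guides cells into the T cell zone, and Tcf7 (-3.41). Igfbp4 (1.32), a secreted binding protein of insulin-like growth factors, was the exception.

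Regulatory T cell markers were lower in all 8 cases (6 past 2-fold, median -1.74). Foxp3, their defining transcription factor, was at 10.3, 6.32, 3.38 and 4.11 CPM in the tumors and at 21.3, 28.5, 22.1 and 28.2 CPM in the lymph nodes, and differed by -2.18 ± 0.33 (SE, adjusted p = 0.00217). Every tumor was below every node. Relative to Cd3e within a library, Foxp3 was 0.375 to 0.676 in tumor and 0.181 to 0.314 in lymph node, with tumor the higher of the tissues on this measure. The ratios in this and other paragraphs were chosen after the values were seen and carry no test.

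Of 14 cytotoxic genes, 6 were higher in tumor and 6 lower, with a median of -0.03. The granzyme genes Gzmb, Gzmc, Gzmd, Gzme and Gzmf were higher past 2-fold, and Gzmk, Ccl5, Eomes and Nkg7 were lower past 2-fold. Gzmb, the granule protease that triggers apoptosis of target cells, was at 51.9, 50.3, 29.0 and 46.9 CPM in the tumors and at 22.7, 10.7, 9.89 and 5.73 CPM in the lymph nodes. All tumors exceeded all nodes, and the log2 difference was 1.99 ± 0.33 (SE, adjusted p = 0.00315). Gzmc was at 73.5, 52.7, 47.3 and 61.2 CPM in the tumors and at 7.45, 4.70, 7.38 and 2.92 CPM in the lymph nodes, with 3.45 ± 0.30 (SE, adjusted p = 3.21e-04). The nearby granzymes Gzmd (4.92), Gzme (4.13) and Gzmf (4.24) are close copies of each other, and their separate values are uncertain. Without animal 1 they stood at 6.14, 5.33 and 5.08. Relative to Cd3e, Gzmb was 3.30 to 5.37 in tumor and 0.0369 to 0.193 in lymph node. Sorted CD45+Ly6G- cells held 642 ± 104 (SD, n = 4) CPM of Gzmb. Prf1, the pore former perforin, was lower in tumor by a log2 difference of -0.67, and Ifng was higher (1.11) at a mean of 2.84 CPM. Prf1 lost its call without animal 4 or 5 (adjusted p = 0.0845 and 0.0804) and Ifng without animal 2, 4 or 5 (adjusted p from 0.0664 to 0.0849).

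Of 12 NK cell markers, 3 were lower, 1 was higher and 8 did not pass. Ncr1, the activating receptor NKp46, had a log2 difference of 0.63 (adjusted p = 0.0740, and 0.0103 without animal 4), and its ratio to Cd3e was 0.549 to 0.842 in tumor and 0.0222 to 0.0531 in lymph node. Klra4 was the marker higher in tumor (3.36), and it belongs to a family of near-identical receptor genes. Among checkpoint and exhaustion genes, 9 of 13 were lower, including Pdcd1 (-1.14), Ctla4 (-1.60) and Tox (-3.27). The median of this list was -1.04, nearer 0 than the -3.85 of the T cell markers. These are levels in whole tissue and not per T cell. Relative to Cd3e, Havcr2 was 2.44 to 5.62 in tumor and 0.0987 to 0.173 in lymph node. Havcr2 (1.15), the gene of TIM-3, which myeloid cells express as well as T cells, Cd244a (1.30) and Entpd1 (0.30) were higher, Entpd1 losing its call without animal 1, 2 or 4 (adjusted p from 0.0612 to 0.0963).

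Genes of the vessels and stroma of lymph nodes were mostly lower in tumor. Of 10 high endothelial venule genes, 9 were lower in tumor and none was higher, among them Madcam1 (-5.91), an addressin, and Enpp2 (-3.48), the enzyme that makes lysophosphatidic acid. Of 9 follicular dendritic cell genes, 7 were lower, all past 2-fold. Cxcl13, the chemokine that draws B cells into follicles, was at 4.91, 1.89, 1.28 and 2.25 CPM in the tumors and at 189, 316, 343 and 282 CPM in the lymph nodes. All nodes were far above all tumors, and the difference was -6.90 ± 0.58 (SE, adjusted p = 3.81e-04). Of 11 sinus macrophage genes, 6 were lower and 2 higher. Cd209b, a C-type lectin of marginal and sinus macrophages, was at 2.68, 0.564, 0.413 and 1.402 CPM in the tumors and at 149.7, 153, 164 and 281 CPM in the lymph nodes, and the node of animal 5 was far above the other nodes. Its log2 difference was -7.42 ± 0.58 (SE, adjusted p = 2.99e-04) (-8.03 without animal 1). Siglec1, or CD169, went the other way (0.97).

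Of 12 lymphoid organizer genes, 9 were lower, led by the chemokines Ccl19 (-7.18) and Ccl21a and the lymphotoxin genes Ltb (-5.30) and Lta (-5.26). Their receptor gene Ltbr was higher in tumor (1.47), as were Nfkb2 (0.84), a subunit of the NF-kappa-B branch it feeds, and Il7 (0.59). Ccl21a, a ligand of Ccr7, was at 9.42, 4.75, 50.5 and 2.57 CPM in the tumors and at 570.3, 544, 523 and 871 CPM in the lymph nodes. The tumor of animal 4 was the highest tumor and the node of animal 5 the highest node, with no overlap, and the log2 difference was -6.18 ± 1.04 (SE, adjusted p = 0.00419). Ccl21a has near-identical copies in the genome, so its level may include theirs. Lymphatic endothelial markers were lower in 7 of 10 cases, for example Lyve1 (-3.23), a hyaluronan receptor. The count of lymphatic genes fell to 4 without animal 2 and to 4 without animal 5.

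Chemokines that attract lymphocytes were lower in 8 of 12 cases and higher in 3. The higher ones were the interferon-induced ligands of Cxcr3, namely Cxcl9 (0.69) and Cxcl10, and Cxcl16 (0.79), the ligand of Cxcr6. Cxcl10 was at 458, 428, 499 and 486 CPM in the tumors and at 37.8, 29.5, 21.8 and 16.4 CPM in the lymph nodes. The tumors were all far above the highest node, and the difference was 4.21 ± 0.26 (SE, adjusted p = 1.41e-04). The receptor genes Cxcr3 (-2.05) and Cxcr6 (-2.41) were themselves lower in tumor. Across chemokine receptors, 11 of 17 were lower, among them Cxcr5 (-7.27), Ccr6 (-6.36) and Ccr7. The 5 higher ones included Ccr1 (2.87), Ccr2 (1.38) and Cx3cr1 (2.46), which monocytes and macrophages use, and Ackr3 (1.06), a scavenging receptor.

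Macrophage genes were higher in tumor. Of 19 markers, 18 were higher (15 past 2-fold), none was lower, and the median was 1.93. Adgre1, the gene of F4/80, was at 214, 174, 184 and 197 CPM in the tumors and at 49.2, 24.7, 20.8 and 22.5 CPM in the lymph nodes. Its tumors all exceeded its nodes, the node of animal 1 being the highest node, and the difference was 2.80 ± 0.20 (SE, adjusted p = 1.70e-04). Arg1, the arginase of alternatively activated macrophages, was at 125, 125, 28.6 and 81.8 CPM in the tumors and at 53.1, 2.75, 0.388 and 0.637 CPM in the lymph nodes, with a log2 difference of 4.97 ± 1.22 (SE, adjusted p = 0.0157), and 6.14 without animal 1. The tumor of animal 4 lay below the node of animal 1, so the tissues overlapped, and the call was lost without animal 2, 4 or 5 (adjusted p from 0.0560 to 0.0668). Trem2, a lipid-sensing receptor of tumor and tissue macrophages, was at 69.1, 50.3, 54.7 and 59.1 CPM in the tumors and at 14.8, 2.15, 2.09 and 1.75 CPM in the lymph nodes, and differed by 4.13 ± 0.58 (SE, adjusted p = 0.00216) (4.78 without animal 1). The ratio of Trem2 to Csf1r, the receptor of the growth factor CSF1, was 0.156 to 0.192 in tumor and 0.00930 to 0.0887 in lymph node. Apoe (0.49) and the complement genes C1qa (1.96), C1qb (1.93) and C1qc (1.77) were higher by less. Fc gamma receptors were higher in 5 of 6 cases, led by Fcgr4 (4.79) and Fcgr1 (3.66).

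Monocyte markers were higher in 8 of 13 cases, with Itgam (2.38), the gene of CD11b, among them, and lower in 2, Nr4a1 (-1.28) and Ms4a4c (-0.31, not past the test without animal 2 or 4, adjusted p = 0.0683 and 0.0740). Ly6c2, the marker of classical monocytes, did not pass (-0.32, adjusted p = 0.0939), though it did without animal 1 (-0.48, adjusted p = 0.00797). Neutrophil genes were lower in 7 of 11 cases. S100a9, a subunit of calprotectin, was at 0.423, 0.233, 0.570 and 0.815 CPM in the tumors and at 5.33, 14.6, 31.3 and 7.9997 CPM in the lymph nodes. All tumors were below all nodes, with a log2 difference of -4.61 ± 0.60 (SE, adjusted p = 0.00128). Ly6g itself had too few counts for the test, at 1 count in each tumor and 4, 6, 11 and 2 counts in the nodes. Mmp9, described below with the matrix proteases, and Csf3r (1.42) were the 2 members higher in tumor. Of 11 eosinophil, basophil and mast cell markers, 6 were higher, including the mast cell proteases Tpsb2 (2.12) and Cma1 (1.85). The 2 lower ones were Prg2 (-4.75) of eosinophils and a receptor gene of mast cells, so mast cell markers did not all go 1 way.

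Dendritic cell genes were mostly lower in tumor. Conventional type 1 markers were lower in 9 of 12, including the chemokine receptor gene Xcr1 (-1.98) and Irf8 (-1.87), the factor they depend on. The 2 higher ones included Tlr3 (1.98), a sensor of double-stranded RNA. Type 2 markers were lower in 6 of 10 and higher in 3, among these Itgax (1.30), the gene of CD11c. Summed over the type 2 markers, the tumors held 240 to 386 CPM and the lymph nodes 225 to 299 CPM. Of 15 genes of mature migratory dendritic cells, 11 were lower and none was higher, for example Ccl22 (-3.999) and Cd83 (-3.65). Fscn1 (0.19), an actin-bundling protein that tumor cells also express, did not pass, except without animal 1 (0.25, adjusted p = 0.04995). Plasmacytoid markers split 4 higher and 6 lower: Siglech (-3.96), the defining surface lectin, was lower, and Bst2 (1.81), which interferon induces in many cells, was higher.

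Inflammatory cytokine and chemokine genes were higher in 12 of 20 cases and lower in 3. Ccl2, the main chemokine for monocytes, was at 343, 316, 319 and 349 CPM in the tumors and at 32.9, 9.07, 8.64 and 10.1 CPM in the lymph nodes. All tumors lay together far above the nodes, and the difference was 4.72 ± 0.40 (SE, adjusted p = 3.31e-04). Ccl7 (4.46), another ligand of Ccr2, and Csf1 (2.25), which sustains macrophages, were also higher. Tnf (-0.92), Il1a (-3.11) and Osm (-1.25) were lower.

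Matrix genes set the tumors apart as well. Of 20 fibroblast and matrix genes, 17 were higher in tumor (13 past 2-fold), with a median of 1.86. Col1a1, a chain of the main fibrillar collagen, was at 3376, 3145, 5323 and 3936 CPM in the tumors and at 296, 175, 116 and 112 CPM in the lymph nodes. Tumors and nodes did not overlap, and the difference was 4.59 ± 0.42 (SE, adjusted p = 4.63e-04). Sorted leukocytes held 64.0 ± 48.9 (SD, n = 4) CPM of Col1a1, on the scale shared with the tumors. Col3a1 (4.21) and Col6a1 (4.38) were also higher. Fap (-1.01), the fibroblast activation protein, was the 1 member lower in tumor. Of 14 matrix proteases and inhibitors, 12 were higher. Mmp9, a gelatinase, was at 334, 269, 372 and 359 CPM in the tumors and at 16.5, 15.1, 16.3 and 13.2 CPM in the lymph nodes, with every tumor above every node and a log2 difference of 4.44 ± 0.13 (SE, adjusted p = 1.01e-04), and Mmp14 (2.49), a membrane-bound collagenase, followed. Timp3 (-1.65), an inhibitor held in the matrix, was lower. Sorted CD45+Ly6G- cells, a fraction that leaves out Ly6G+ leukocytes, held 8.76 ± 2.35 (SD, n = 4) CPM of Mmp9.

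Mesenchymal transition and TGF-beta genes were higher in 16 of 18 cases and lower in none, with Snai1 (4.67), Snai2 (2.98) and Twist2 (4.24), which encode repressors of epithelial genes, among them. Epithelial markers went the other way. Of 19 tested, 16 were lower in tumor, 14 past 2-fold, and only Ereg (5.01), a growth factor of the EGF family, was higher, a call that was lost without animal 4 (adjusted p = 0.0621) and that stood at 7.46 without animal 1. Krt8, a keratin of simple epithelia, was at 10.7, 3.04, 6.80 and 9.04 CPM in the tumors and at 151, 76.5, 49.1 and 38.1 CPM in the lymph nodes, tumors all below nodes, and the difference was -3.33 ± 0.48 (SE, adjusted p = 0.00225). The adhesion gene Epcam differed by -4.53, from a mean of 31.9 CPM in lymph node to 1.51 CPM in tumor. The intestinal genes Vil1, Cdx1 and Cdx2 had too few counts to test in either tissue. The list was made for carcinoma cells, and its members were at higher levels in the nodes than in the tumors, against its name.

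Contractile and pericyte genes were lower in 8 of 10 cases. Acta2, smooth muscle actin, was at 17.9, 20.6, 25.3 and 22.001 CPM in the tumors and at 77.9, 83.0, 77.3 and 36.3 CPM in the lymph nodes, with the node of animal 5 the lowest node, and the difference was -1.62 ± 0.25 (SE, adjusted p = 0.00259). Cspg4 (2.89), the proteoglycan NG2 of pericytes and many tumor cells, was higher. Blood endothelial markers were lower in 7 of 17 and higher in 3, with 7 not passing. Pecam1 (-1.85), or CD31, was among the lower ones, and the higher ones were Apln (2.77), which encodes the peptide apelin, Esm1 (2.46), a secreted proteoglycan, and the VEGF receptor gene Flt1 (0.84).

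Dividing-cell genes were higher in tumor in 21 of 22 cases, 11 of them past 2-fold, with a median of 1.19. Top2a, which untangles DNA in dividing cells, was at 517, 569, 530.4 and 618 CPM in the tumors and at 97.0, 145, 127 and 126 CPM in the lymph nodes. Tumors were above all nodes, and the difference was 2.19 ± 0.10 (SE, adjusted p = 1.01e-04). Mki67, the proliferation marker Ki-67, was at 270.4, 314, 300.4 and 292 CPM in the tumors and at 104, 196, 162 and 158 CPM in the lymph nodes, with 0.96 ± 0.13 (SE, adjusted p = 0.00103). Ccnb2 (-1.52), a mitotic cyclin, was the only member lower.

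Many promoters of mitotic genes carry a CCAAT box, the site of the factor NF-Y. The promoters of Plk1, Cdk1 and Top2a, all higher in tumor, hold such a box before the start of transcription and were chosen to show its position. The sequences are from RefSeq on GRCm38.p6, 5′ to 3′ on the gene's strand, and capitals mark CCAAT or its reverse complement ATTGG. Each is trimmed to a stretch around its marked matches. It lies wholly before the start site, and its last base need not adjoin that site. Plk1 lies at chr7:122159381-122159434 on the plus strand, Cdk1 at chr10:69352916-69353160 on the minus strand and Top2a at chr11:99024203-99024439 on the minus strand.
Plk1: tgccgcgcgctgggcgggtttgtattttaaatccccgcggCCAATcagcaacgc
Cdk1: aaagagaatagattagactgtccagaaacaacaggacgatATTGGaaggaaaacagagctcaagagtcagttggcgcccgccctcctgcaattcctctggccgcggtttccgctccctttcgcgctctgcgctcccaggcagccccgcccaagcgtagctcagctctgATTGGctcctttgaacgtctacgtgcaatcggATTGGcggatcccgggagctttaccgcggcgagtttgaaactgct
Top2a: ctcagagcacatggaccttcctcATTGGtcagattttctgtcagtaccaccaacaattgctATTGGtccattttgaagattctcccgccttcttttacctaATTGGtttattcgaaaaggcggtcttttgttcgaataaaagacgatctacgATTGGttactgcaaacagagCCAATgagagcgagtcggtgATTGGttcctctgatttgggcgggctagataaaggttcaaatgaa
CCAAT was found on either strand in 14 of 18 windows from 250 bases before to 50 bases after the start, for the 18 of 22 genes of this list that had a promoter. Ccnb2, the only member lower in tumor, was among the genes with a match. Among all 32851 windows CCAAT was found in 37.4%. This is a count of letters in windows and no measure of NF-Y binding.

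Hypoxia genes were higher in 10 of 15 cases and lower in 2. Car9, the carbonic anhydrase that hypoxia induces, was at 50.9, 82.9, 24.6 and 11.8 CPM in the tumors and at 4.36, 1.16, 0.869 and 0.912 CPM in the lymph nodes, with no overlap between the tissues and a log2 difference of 4.52 ± 0.53 (SE, adjusted p = 0.00103). P4ha1 (2.45) and P4ha2 (3.86), prolyl hydroxylases of collagen, were also higher, and Adm (-1.68), which hypoxia also induces, was lower. Glycolysis genes were higher in 14 of 16, for example Pgk1 (1.44) and the lactate exporter gene Slc16a3 (3.22), and Pfkp (-0.61) was lower. Of 16 oxidative phosphorylation genes, 7 were lower and 3 higher, none past 2-fold. The count of lower genes fell to 3 without animal 1, 2 without animal 2 and 3 without animal 4. Among arginine and prostaglandin enzymes, Arg2 (-3.18) was lower where Arg1 was higher, and Hpgd (-3.78), which degrades prostaglandins, was lower where Ptges (1.65), which makes prostaglandin E2, was higher.

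Genes induced by type I interferon were higher in tumor in 17 of 18 cases, all past 2-fold, with a median of 2.30 and no member lower. Rsad2, the antiviral protein viperin, was at 161, 148, 169 and 141 CPM in the tumors and at 22.1, 8.46, 7.93 and 6.86 CPM in the lymph nodes. The node of animal 1 was the highest node and still far below every tumor, and the difference was 3.94 ± 0.32 (SE, adjusted p = 2.68e-04). Isg15, a ubiquitin-like protein, was at 201, 170.3, 229.8 and 226 CPM in the tumors and at 36.5, 24.1, 24.6 and 18.9 CPM in the lymph nodes, with 3.02 ± 0.20 (SE, adjusted p = 1.51e-04). Ifit1 (3.13) and Ifit3 (2.85), which bind foreign RNA or partner with its binders, were higher too.

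Many genes of this kind carry the interferon-stimulated response element, shown here in the promoters of Rsad2, Ifit1, Isg15 and Ifit3, all higher in tumor. Source, build, orientation and trimming are as described for the mitotic genes. Capitals mark GAAA, any 2 bases and GAAA again, or the reverse complement, TTTC, any 2 bases and TTTC. Rsad2 lies at chr12:26456523-26456612 on the minus strand, Ifit1 at chr19:34640745-34640853 on the plus strand, Isg15 at chr4:156200835-156200936 on the minus strand and Ifit3 at chr19:34583333-34583456 on the plus strand.
Rsad2: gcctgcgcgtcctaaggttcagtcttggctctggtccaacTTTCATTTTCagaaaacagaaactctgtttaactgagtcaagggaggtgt
Ifit1: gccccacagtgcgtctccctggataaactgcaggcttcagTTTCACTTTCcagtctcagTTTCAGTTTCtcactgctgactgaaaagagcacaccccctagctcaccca
Isg15: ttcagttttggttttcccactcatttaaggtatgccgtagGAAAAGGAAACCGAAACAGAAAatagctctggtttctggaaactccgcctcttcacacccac
Ifit3: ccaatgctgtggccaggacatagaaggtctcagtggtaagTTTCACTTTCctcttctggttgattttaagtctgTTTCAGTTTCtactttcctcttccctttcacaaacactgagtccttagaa
The element occurred in 9 of 15 windows of the type I list (14 of 18 genes matched), in 10 of 15 windows of the interferon-gamma list (13 of 18 genes matched) and in 3.44% of all 32851 windows. In cell cycle genes it occurred in 0 of 18. Matches in overlapping windows count once per window.

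Genes induced by interferon-gamma were higher in 13 of 18 cases, 5 past 2-fold, with a median of 0.94. Guanylate-binding protein genes Gbp2 (1.51) and Gbp3 (1.46) were higher. Ido1 (-2.27), which degrades tryptophan, was lower. MHC class I genes differed by little: 6 of 13 were higher and 4 lower, none past 2-fold. H2-K1 (-0.40) was lower and H2-D1 (0.26) higher, the latter only with animals 1, 2 and 5 all kept (adjusted p from 0.0632 to 0.0946), and their sequences are close enough that the split is uncertain. B2m, the shared light chain, had a difference of 0.01. MHC class II genes were lower in 9 of 11, 7 past 2-fold. H2-Aa, a chain of the class II dimer, was at 1203, 763, 533 and 611 CPM in the tumors and at 2104, 2396, 2683 and 2307 CPM in the lymph nodes, with -1.68 ± 0.26 (SE, adjusted p = 0.00241). H2-Ob, which B cells express, was at 16.1, 3.02, 2.30 and 2.04 CPM in the tumors and at 314, 356, 442 and 363 CPM in the lymph nodes, with -6.60 ± 0.77 (SE, adjusted p = 0.00118) (-7.31 without animal 1). Tumors and nodes did not overlap in either gene, and the tumor of animal 1 was the highest tumor in H2-Ob. Ctss (0.77), the protease that trims the class II invariant chain, was higher.

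Genes of the CD40 pathway were lower in 12 of 14 cases. Mouse Cd40 itself was at 43.2, 40.1, 32.9 and 34.3 CPM in the tumors and at 63.6, 66.0, 71.8 and 60.3 CPM in the lymph nodes, lower in tumor in all 4 animals, with -0.80 ± 0.10 (SE, adjusted p = 0.00103), and the human CD40 transgene was not analysed here. Its ligand gene Cd40lg (-4.77), which activated T cells express, and the adaptor gene Traf1 (-1.60) were lower, and Nfkb2 was the only member higher. Of 13 B7 family ligands and receptors, 11 were lower. Cd276, the gene of B7-H3, was at 63.0, 66.9, 70.1 and 52.3 CPM in the tumors and at 10.01, 4.48, 5.20 and 3.78 CPM in the lymph nodes, higher in tumor by 3.52 ± 0.25 (SE, adjusted p = 1.82e-04). Cd274, the gene of PD-L1, was at 67.6, 85.6, 49.1 and 45.4 CPM in the tumors and at 63.4, 57.2, 55.6 and 48.8 CPM in the lymph nodes. The tissues overlapped, and the log2 difference of 0.10 ± 0.14 (SE, adjusted p = 0.548) did not pass the test. Of 13 complement genes, 8 were lower, for example C3 (-2.07), and the receptors C3ar1 (4.54) and C5ar1 (3.33) were higher with C1qa.

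Genes of other material that a dissected piece of tissue could hold differed too. Fat cell genes were lower in tumor in all 12 cases, with a median of -3.97, and summed to 2134 to 6217 CPM in the nodes and 93.1 to 913 CPM in the tumors. Adipoq, the gene of adiponectin, was at 25.9, 1.87, 2.00 and 44.7 CPM in the tumors and at 332, 269, 197 and 125 CPM in the lymph nodes, every tumor below every node, and its difference of -4.74 ± 1.28 (SE, adjusted p = 0.0221) did not pass without animal 1 or 4 (adjusted p = 0.0541 and 0.0722). The count of lower fat genes fell to 6 without animal 1 and 4 without animal 4. Among skeletal muscle and skin genes, 4 were higher and 3 lower, the count of higher genes falling to 2 without animal 2, 4 or 5. Acta1, skeletal muscle actin, was at 4.54, 13.9, 47.6 and 7.14 CPM in the tumors and at 2.71, 0.257, 0.0740 and 0.172 CPM in the lymph nodes, with the tumor of animal 4 the highest and no overlap. Its difference of 5.08 ± 1.58 (SE, adjusted p = 0.0345), which was 6.69 without animal 1, did not pass without animal 2, 4 or 5 (adjusted p from 0.0719 to 0.129). Erythroid genes were lower in 3 of 6 (6 without animal 5), and platelet genes were higher in 2 of 4. The part of this material in the other results was not tested.

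**Figure D4:**
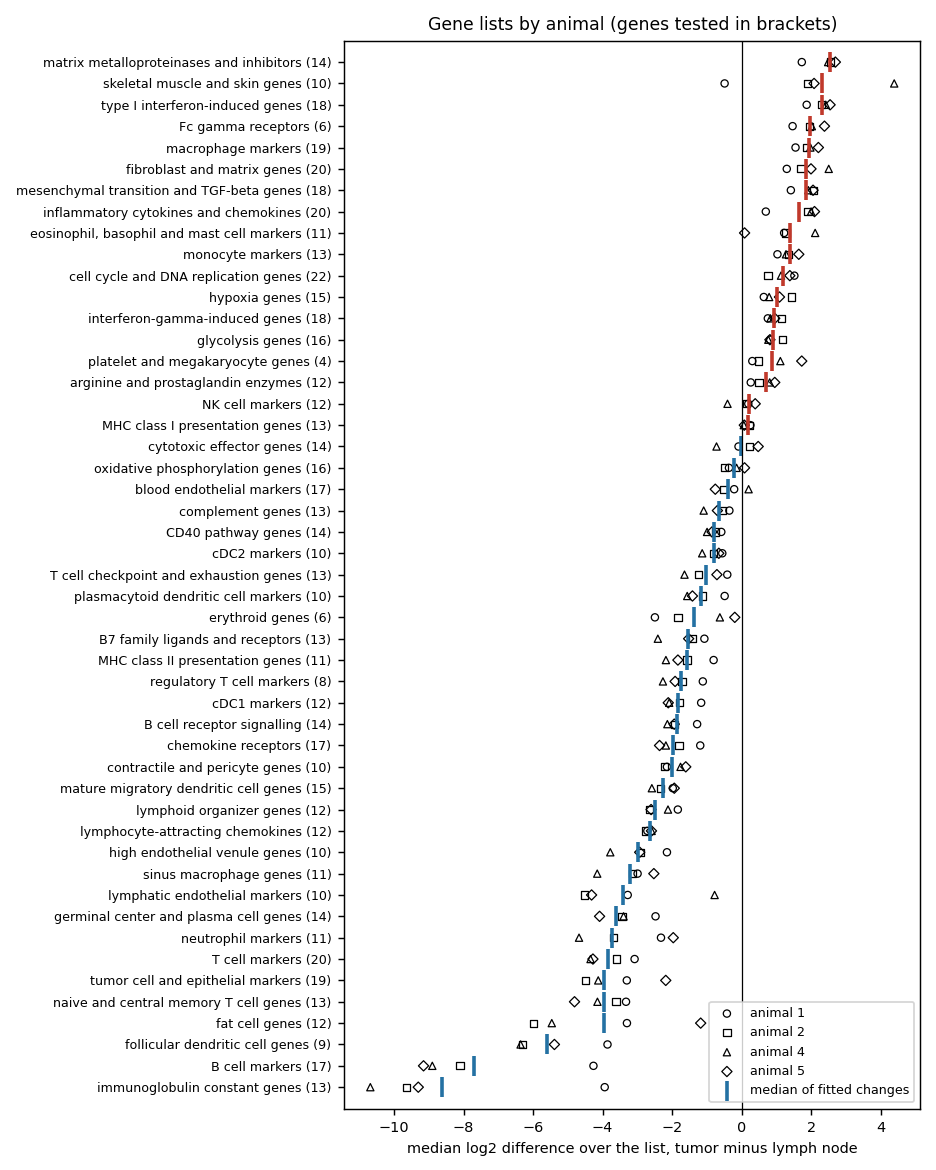
Median log2 difference over each gene group (tumor minus lymph node) by animal (open markers, from log2 CPM with a prior count of 2) and the median of the fitted differences (colored bars). Immunoglobulin and B cell groups are lowest and lie nearest 0 in animal 1, and these groups and the fat and muscle groups are spread over more than 4 log2 units between animals.

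The same tissues were compared in animals that had received antibody, which share no library with the vehicle comparison. In the 4 CD40 mAb animals with both tissues, 3251 of 18105 genes (18%) were called past 2-fold, 10.3% higher and 7.7% lower. Of the 2915 vehicle genes higher past 2-fold, 1625 (55.7%) were called higher there as well, which is 87.5% of the calls in those animals, and none was called lower. Of the 3571 lower genes, 1289 (36.1%, 92.5% of theirs) were called lower and none higher. At an adjusted p under 0.05 without the 2-fold bound, 7569 genes (41.8%) were called in these animals, 4643 without animal 2, 3859 without animal 3, 5202 without animal 4 and 8904 (48.6%) without animal 5. The tumor of CD40 mAb animal 5 stood apart from the other 3, with 1038 CPM of T cell markers against 34.2 to 127 CPM, and 10135 CPM of macrophage markers against 2604 to 4169.7 CPM. Without this animal, left out after the values were seen, 4285 genes (23.4%) were called past 2-fold, 12.4% higher and 11% lower, and 1995 vehicle genes were called higher and 1829 lower in both.

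In the ATOR-4066 animals, the tumor library of animal 3 carried B cell markers at 2247 CPM where the other 4 tumors held 23.7 to 56.6 CPM, and the comparison is given without it (4749 genes past 2-fold, 26%, of all genes 14.2% higher and 11.9% lower) and with it (2080 genes, 11.6%, of all genes 7.84% higher and 3.79% lower). Without it, 1895 vehicle genes (65.0%) were called higher in both, which is 73.4% of the calls in those animals, 1911 (53.5%, 88.2% of theirs) were called lower in both, and 2 were called in the opposite direction. With it, 1086 were called higher and 657 lower in both. At an adjusted p under 0.05 without the 2-fold bound, 8052 genes (45%) were called with all 5 animals, 10019 (54.9%) without animal 3, and 4053, 4279, 3496 and 3931 without animal 1, 2, 4 or 5.

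In the medians that follow, ATOR-4066 stands for these animals without animal 3. The B cell median was -7.70 in vehicle, -7.51 with CD40 mAb and -6.96 with ATOR-4066, and the macrophage median was 1.93, 2.06 and 2.37. The neutrophil median was -3.72 in vehicle, -1.29 with CD40 mAb and 0.71 with ATOR-4066, over 11, 11 and 10 genes tested. The fat cell median was -3.97, -0.01 and -0.49. The cell cycle median was 1.19 in vehicle, -0.21 with CD40 mAb and -0.06 with ATOR-4066. The epithelial median was -3.95, -0.38 and -1.26, and that of type I interferon-induced genes was 2.30, 0.77 and 1.77. Without CD40 mAb animal 5, the CD40 mAb medians were -7.91 for B cell, 1.74 for macrophage, -2.27 for neutrophil, -1.64 for fat cell, -0.12 for cell cycle, -1.55 for epithelial and 0.82 for type I interferon-induced genes. With all 5 ATOR-4066 animals, the fat cell median was 1.63 and the cell cycle median 0.06, both on the other side of 0. The other medians with all 5 were -6.14 for B cell, 2.27 for macrophage and 0.80 for neutrophil genes. They were -0.56 for epithelial and 1.59 for type I interferon-induced genes. Whether the tissue difference depends on treatment was not tested, and nodes as well as tumors of these animals had received antibody.

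**Figure D5:**
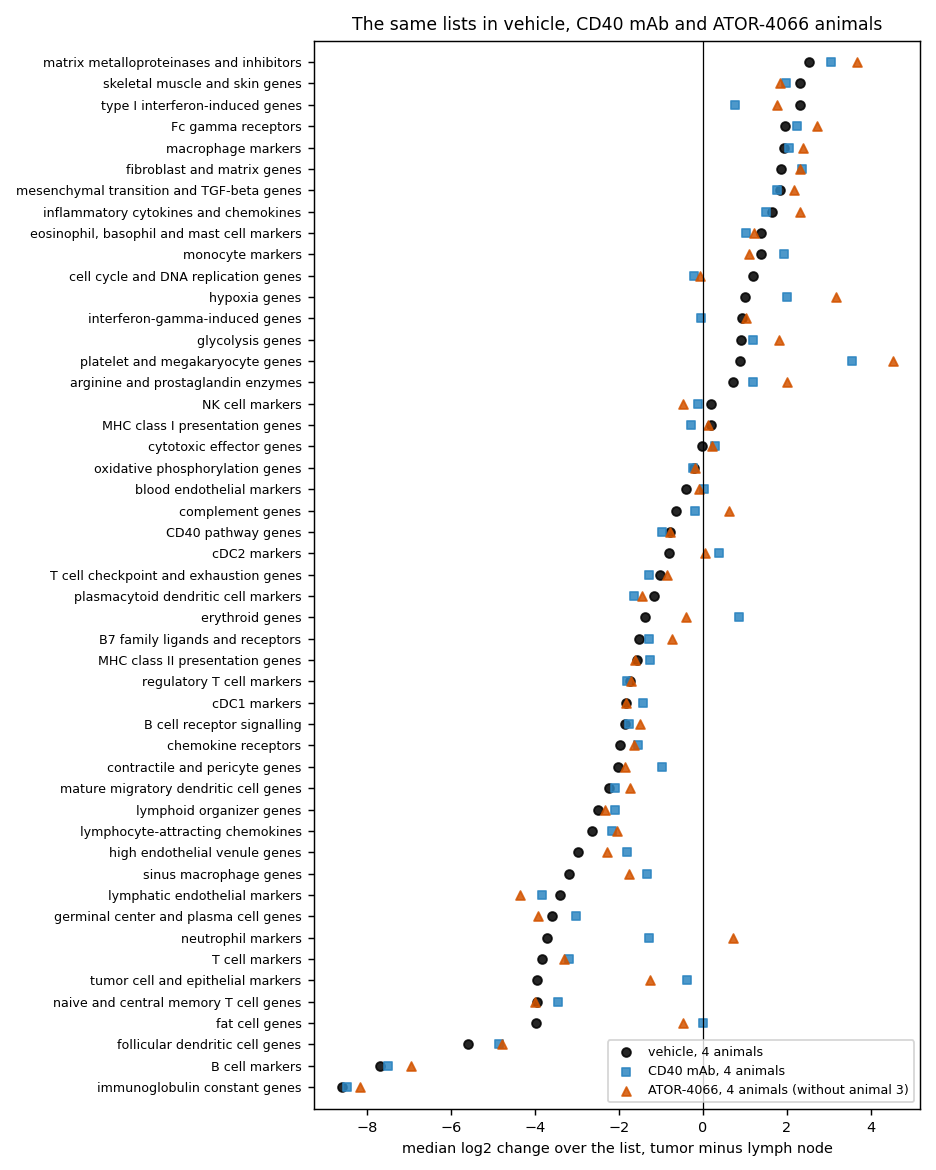
Median log2 difference over each gene group (tumor minus lymph node) in vehicle (circles), CD40 mAb (squares) and ATOR-4066 animals without animal 3 (triangles), each from its own paired fit. B cell markers and immunoglobulin constant genes are low in all 3 sets of animals, and the neutrophil, fat cell and epithelial groups are lowest in vehicle.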

How the data were processed

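Polyadenylated RNA was sequenced from tumor and lymph node of mice, with a stranded mRNA kit per the labels' protocols. The authors' deposited table holds estimated counts per gene for 57010 genes and 52 libraries. Per the submitters' processing notes, STAR (version given as 5.1) and GRCm38 were used, and the annotation and the counting of strands were not given in the sources used here. Estimated counts as deposited by the authors were rounded to whole numbers. Where genes share sequence, such counts divide reads by estimate.

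Genes were kept by filterByExpr (count minimum 10). Library sizes were scaled by TMM, and edgeR 4.0.16 in R 4.3.3 fitted animal and tissue with the quasi-likelihood test and Benjamini-Hochberg adjustment over all genes tested (threshold 0.05), and glmTreat tested for a difference past 2-fold. The script was tested on simulated data with no animal effect and with only a small part of the genes changed. That test cannot speak to the pairing or the scaling in these data. Same animals were read from the titles; the deviations of the 2 tissues of an animal from their tissue means correlated at -0.12, -0.09, 0.01 and -0.16 over genes, so the pairing rests on the titles. Alternatives were no animal block, other scaling (RLE, total counts, upper quartile), other filters, DESeq2 1.42.0, leaving out each animal, and including the lymph node library of animal 3.

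The members and the 49 gene lists (640 genes, 1 not found by symbol) were chosen with earlier results of these data known. Named genes come from a rule: among genes past 2-fold whose mean log2 CPM reached 3, leaving out predicted genes, pseudogenes and immunoglobulin and T cell receptor segments, the 20 of largest difference in each direction; of each list, the 4 of smallest p, the 3 of highest mean CPM and up to 3 called against the list median; 10 genes whatever their values; and the 10 genes with a mean log2 CPM from 5 up that varied most between animals. The text names a part of these, and some genes are not reported here. Of 183 named genes, 34 fall outside this rule and were chosen after their values were seen: Ackr3, Adipoq, Arg1, Ccl22, Ccl7, Ccr6, Cd274, Cd3e, Cdk1, Csf1r, Ctla4, Cxcr3, Cxcr6, Eomes, Epcam, Fcgr4, Gzmb, Gzmk, H2-Ob, Ifit1, Ifit3, Ifng, Isg15, Ncr1, Pdcd1, Plk1, Prf1, Rsad2, S100a9, Siglech, Slc16a3, Snai1, Trem2 and Twist2. Gene types were read from GENCODE vM21 by identifier, and promoters come from RefSeq on GRCm38.p6.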

Additional observations from a re-analysis of the deposited data

Results flagged for a closer look

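Over 76 groups of 4 libraries (38 genes in 2 tissues), 20 held a library far from the other 3, judged by the gap between the highest or lowest library and its nearest neighbour as a share of the range of the group (above 0.829 for 4 samples). In independent groups of normally distributed values, this rule flags about 1 in 20. These groups reuse the same libraries. Some of their genes were picked for varying between animals or after their values were seen. That rate is therefore no yardstick for the number flagged here.

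The lymph node of animal 1 was the high library for 12 genes. The gap was 0.997 of the range for Hmga2, 0.989 for Rhox5, 0.985 for Fosl1, 0.984 for Spp1, 0.970 for Trem2 and 0.955 for Arg1. It was 0.940 for Ccl2, 0.930 for Acta1, 0.918 for Car9, 0.916 for Inhba, 0.895 for Rsad2 and 0.861 for Adgre1. All of these genes were at higher mean levels in tumor than in lymph node. The tumor of animal 1 was the high library for 4 genes with higher levels in lymph node, at 0.998 for Glycam1, 0.994 for Ighg1, 0.988 for Ms4a1 and 0.930 for H2-Ob.

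Away from animal 1, the lymph node of animal 5 was high for Cd209b (0.894) and Ccl21a (0.864) and low for Acta2 (0.877), and the tumor of animal 4 was high for Ccl21a (0.857).

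Among the genes named in the text, 1 went one way in every vehicle animal and the other way in every animal of an antibody group. Cx3cr1, the fractalkine receptor, was higher in tumor in 4 of 4 vehicle animals and lower in 5 of 5 ATOR-4066 animals, where its log2 difference was -1.38. The difference between treatments was not tested.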

How the results depend on the processing

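The 13995 genes called in vehicle animals became 14636 with no replicate block, that is, without pairing by animal, and the 6486 past 2-fold became 6716. For CD40 mAb animals the same change gave 8541 in place of 7569, and for ATOR-4066 animals 8904 in place of 8052. Of the named genes, Arg1 (2.67, adjusted p = 0.130 by edgeR), Entpd1 (adjusted p = 0.0589) and Prf1 (adjusted p = 0.0508) lost their calls without the block. Leaving out each animal gave 12199 to 13527 called in vehicle and 5375 to 6536 past 2-fold, 3859 to 8904 with CD40 mAb and 3496 to 10019 with ATOR-4066.

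Including the lymph node library of animal 3, without the block, gave 8724 genes called by edgeR at an adjusted p under 0.05 (2955 higher, 5769 lower) and 0 past 2-fold. It ended the calls of 90 of 183 named genes that kept their direction. Arg1 lost its call as well and turned to -0.019. B2m and Cd274, not called before, turned to -0.058 and -0.030. B2m also turned under upper-quartile scaling (-0.091) and with a count minimum of 50 (-0.025), and Cd274 under upper-quartile scaling (-0.0074). Leaving out each animal gave -0.0087 to 0.053 for B2m, below 0 without animal 2 or 5, and -0.061 to 0.18 for Cd274, below 0 without animal 2. B2m and Cd274 passed the test in none of the paired fits.

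Upper-quartile scaling moved the median of all genes to -0.12, and 45.1% of its calls were higher in tumor, where total counts gave 52.8%. With no filter on low counts, 8 named genes lost their calls (Acta1, Adipoq, Arg1, Hmga2, Ighg1, Prl2c2, Rhox5 and Shisal2b). Of 183 named genes, 164 kept direction and side of the threshold in all alternatives except the one with that library of animal 3. For genes near 0 in a tissue the count limits the fold, which then rests on the small count the fit adds.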
